A study of Mus musculus with 6 samples.

Results

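The genes described here are 10 candidate marker genes of the strial marginal cell that lie outside its potassium transport machinery: Dnase1, Tmem45b, Rnf152, Atp13a5, Tacr3, Etnppl, Stac, Shroom3, Lrp2 and Eya4. They were picked by symbol from the 18193 genes that had a probe set with 1 gene symbol, and 23 probe sets on the array belonged to them. The choice was made with the mutant minus wild type differences of these same arrays in view, so for these 10 genes those differences are given as a description and carry no test. Stria vascularis RNA was measured on 6 Affymetrix arrays, 3 from wild type mice and 3 from Errb mutant mice, each array holding a pool of 10 mice. Errb (Nr3b2, now Esrrb) encodes an orphan nuclear receptor, estrogen-related receptor beta, and was mutated by a conditional knock-out. The sources used here do not name the allele, the Cre driver, the strain or any treatment, and the only age label, postnatal day 3 to 5, is on wild type replicate 1. Stria vascularis is the tissue in the sample labels, which are followed although the series' design text names the inner ear.

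The stria vascularis is the layered epithelium of the cochlear lateral wall that produces endolymph, the potassium-rich fluid bathing the hair cells. Its marginal cells face the endolymph and secrete potassium through an apical channel made of Kcnq1 and Kcne1, after uptake from the strial space by the cotransporter Slc12a2. The 10 genes are of other kinds, among them an endocytic receptor, other membrane proteins, enzymes, an adaptor, a cytoskeletal protein and a transcription regulator. The arrays hold whole tissue, so they do not show which cells expressed the genes, and fewer cells of a type cannot be told apart from less RNA per cell.

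Each probe set has a deposited log2 expression value. Array medians ranged from 6.07 to 6.95, and same-numbered wild type and mutant arrays lay close together while numbers 1, 2 and 3 differed. Comparisons were therefore made within the 3 same-numbered pairs, as the mutant value minus that of its wild type partner (log2), with the mean ± SD of the 3 pairs (n = 3). Values of different pairs, and levels of different probe sets, are not on a common scale. Pair 1 differed in RNA quality from the others. Its 3' minus 5' control signal for Gapdh reached 2.28 (wild type) and 2.57 (mutant), against -0.04 to 0.51 on the other 4 arrays. The best expressed probe set of Esrrb itself differed by -0.07 ± 0.21, but where it lies relative to the deleted part is not given, so it does not check the genotype labels. Nothing beyond pooling says how independent the samples were. P-values of the paired fit rest only on the spread of the 3 pair differences of these 6 pools, moderated by limma over all probe sets.

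With each gene taken by its best expressed probe set, 7 of the 10 genes formed a lower set, 2 stayed level and Eya4 was in neither group. Dnase1, Tmem45b, Rnf152, Atp13a5, Tacr3, Etnppl and Stac had a mean difference of -1 or below and were lower in all 3 pairs. Such a difference was held by 40 of 18193 genes, 0.22%. Their mean differences ran from -3.31 to -1.04 with a median of -1.69, against 0.0036 over all genes. Shroom3 and Lrp2 stayed within 0.5 of 0 in every pair, as did 91.1% of all genes, so staying level is the common behaviour on these arrays. Eya4 was slightly higher in the mutant in every pair, and its mean of 0.39 lay at percentile 98.8 of the mean differences of all genes. The gene nearest inside the limit of -1 was Stac (-1.04), and the only gene just outside the limit of 0.5 was Eya4, whose pair 3 difference was 0.54. In limma's paired fit 4 of the 10 best expressed probe sets passed at an adjusted p of 0.05, all lower in the mutant, with a background of 0.132% of genes. They were those of Dnase1, Tmem45b, Rnf152 and Atp13a5. In the fit without pairs 0 of the 10 passed, against 0.0055% of all genes in either direction. Since this contrast chose the genes, nothing is read from these counts.

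**Figure D1:**
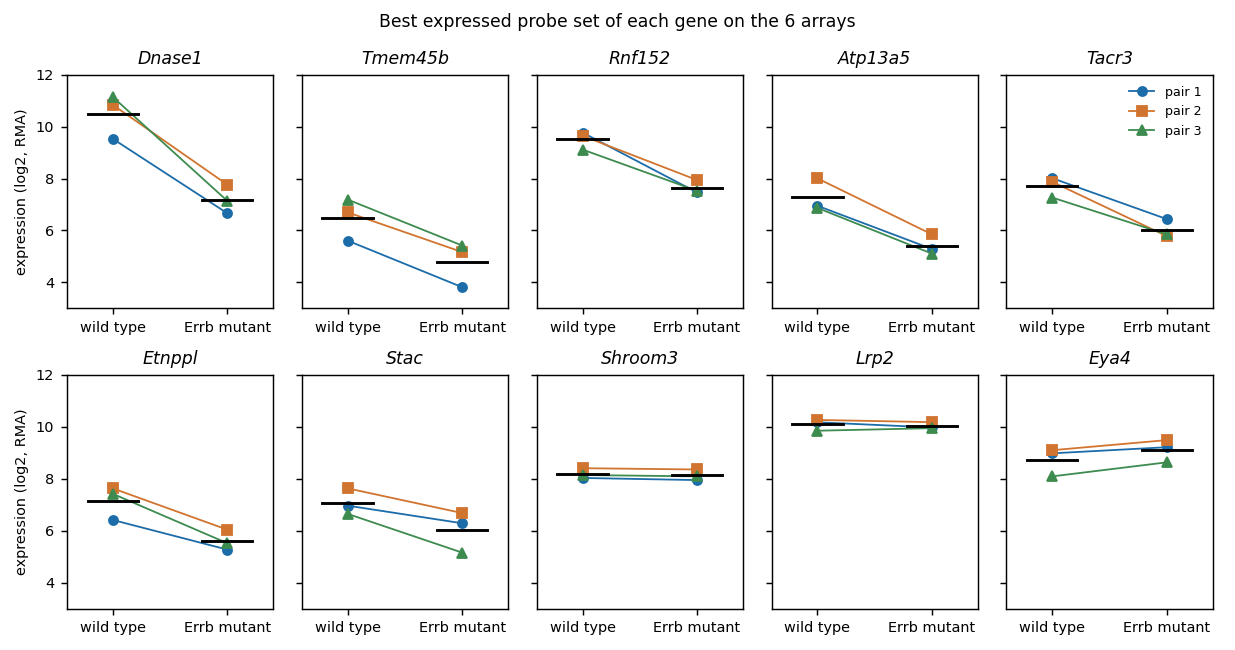
Expression (log2, RMA) of the 10 genes on the 6 arrays, by best expressed probe set. Coloured markers joined by a line are the 2 arrays of a same-numbered pair, and black bars are the genotype means. The lines of Dnase1 drop in all 3 pairs (mean -3.31), while those of Shroom3 and Lrp2 are nearly flat.

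The start regions of the genes were searched for the hexamer AGGTCA, the core sequence that estrogen-related receptors and several other nuclear receptors bind, and for its extended forms AAGGTCA and TCAAGGTCA, which contain it and are favoured by estrogen-related receptors. RefSeq promoter windows (GRCm38.p6, 250 bases before to 50 after a start) were found for 9 of the 10 genes, all but Tmem45b, as 13 windows. On either strand, AGGTCA occurred in 3 of the 13 windows (23.1%), against 16.3% of all 32851 windows in the table (95% exact Clopper-Pearson interval 15.9 to 16.7). The windows were those of Dnase1, Rnf152 and Etnppl. They were 3 of the 8 windows of the lower genes, against 0 of the 5 windows of Shroom3, Lrp2 and Eya4, counts too small to set the groups apart. The extended form AAGGTCA occurred in 0 of the 13 windows, against 4.72% of all windows, and TCAAGGTCA in 0 of 13, against 0.423%. The matching windows are shown because they are the only ones of the 10 genes with the hexamer, which is in capitals (TGACCT is the hexamer on the opposite strand). The Dnase1 window is chr16:4036895-4037194 (+ strand), with the match starting 52 bases before the start. The Rnf152 window is chr1:105356661-105356960 (- strand), with the match 204 bases before the start. The Etnppl window is chr3:130617325-130617624 (+ strand), with the match 8 bases after the start. A second window of Dnase1 and a second of Etnppl held no match. A match describes letters in a window and does not show binding.
Dnase1: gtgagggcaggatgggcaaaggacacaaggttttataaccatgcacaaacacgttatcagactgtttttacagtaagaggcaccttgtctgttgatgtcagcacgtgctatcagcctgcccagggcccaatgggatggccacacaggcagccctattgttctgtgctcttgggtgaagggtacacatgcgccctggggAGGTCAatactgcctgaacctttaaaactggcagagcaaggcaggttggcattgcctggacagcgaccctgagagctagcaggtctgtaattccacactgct
Rnf152: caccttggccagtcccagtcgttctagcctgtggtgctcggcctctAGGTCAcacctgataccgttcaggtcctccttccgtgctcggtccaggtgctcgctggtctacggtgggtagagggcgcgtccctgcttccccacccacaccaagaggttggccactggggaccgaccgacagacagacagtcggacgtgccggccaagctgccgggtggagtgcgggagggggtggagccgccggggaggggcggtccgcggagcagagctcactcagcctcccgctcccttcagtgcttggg
Etnppl: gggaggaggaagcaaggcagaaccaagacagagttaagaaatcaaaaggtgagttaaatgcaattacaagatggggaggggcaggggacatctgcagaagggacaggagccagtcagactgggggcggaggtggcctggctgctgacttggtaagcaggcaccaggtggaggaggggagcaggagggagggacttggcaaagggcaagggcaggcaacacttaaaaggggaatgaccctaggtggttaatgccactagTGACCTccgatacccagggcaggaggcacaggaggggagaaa

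Dnase1, whose start region is printed above, encodes the secreted endonuclease that degrades extracellular DNA, and it had the largest difference of the 10 genes. Its single probe set read 9.53, 10.83 and 11.14 on wild type arrays 1 to 3 and 6.66, 7.76 and 7.14 on the mutant arrays. Every mutant array lay below every wild type array, and the gap was widest in pair 3. The mean difference was -3.31 ± 0.60, or 9.91-fold, the second lowest of all 18193 genes after Kcne1. On the mutant arrays the probe set still lay at percentile 61.2 to 64.6 of all probe sets, down from 93.9 to 98.0 in wild type, so the mutant values were not at the bottom of the array's range. The probe set is of a class that can hybridise to more than 1 transcript of a gene. Of 9 other nuclease genes listed beside it, 8 were measured and 0 passed in the paired fit, with differences from -0.10 to 0.26. Dnase2a, the lysosomal acid endonuclease, differed by 0.20 ± 0.09 (95% interval 0.02 to 0.39, limma adjusted p = 0.652), and Endog, a mitochondrial endonuclease, by -0.10 ± 0.11 (-0.29 to 0.09, adjusted p = 0.763).

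Several of the lower genes encode membrane proteins. Tmem45b, a multipass membrane protein of epithelia, read 5.61, 6.70 and 7.19 in wild type and 3.82, 5.17 and 5.42 in the mutant. Its 3 pair differences were close to each other, from -1.79 to -1.53, with a mean of -1.69 ± 0.15 (3.24-fold). Genotypes did not overlap, although the highest mutant value was only just under the lowest wild type value. The Tmem45b probe set lay at percentile 10.7, 18.4 and 33.5 of all probe sets on mutant arrays 1 to 3, so its fold is uncertain. Its relative Tmem45a differed by 0.0016 ± 0.14 (95% interval -0.20 to 0.21, limma adjusted p = 0.997).

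Atp13a5 encodes a P5-type ATPase, a family of transporters of the endomembrane system. Its best expressed probe set read 6.95, 8.01 and 6.87 in wild type and 5.29, 5.85 and 5.11 in the mutant, a mean difference of -1.86 ± 0.26 (3.63-fold). All wild type arrays were above all mutant arrays. The second probe set was also lower in all 3 pairs, but unevenly: it differed by -0.31 in pair 1 and by -1.91 and -2.43 in pairs 2 and 3. In pair 1 its wild type value of 4.29 lay at percentile 17.2, against 55.4 and 58.6 on the other wild type arrays. Pair 1 is the pair with the wide 3' to 5' control gap, whose part in this was not tested. The P5 relatives Atp13a1 (0.03 ± 0.03, 95% interval -0.13 to 0.20, limma adjusted p = 0.898) and Atp13a2 (-0.02 ± 0.04, -0.19 to 0.15, adjusted p = 0.946) were close to 0. Atp13a4 had the smallest p of all the family and pathway genes examined. Named after its values were seen, it read 7.28, 6.97 and 6.51 in wild type and 6.53, 6.12 and 5.91 in the mutant, a difference of -0.73 ± 0.12 (95% interval -0.93 to -0.53) that missed the threshold (limma adjusted p = 0.0922, paired). It was lower in 3 of 3 pairs, and the genotypes overlapped by a narrow margin.

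Tacr3 encodes the neurokinin 3 receptor, a G protein-coupled receptor for the tachykinin neurokinin B, and its 3 probe sets did not agree. The best expressed one read 8.01, 7.87 and 7.27 in wild type and 6.44, 5.78 and 5.85 in the mutant, a difference of -1.69 ± 0.35. It is of the class that can cross-hybridise. The least expressed one read 7.56, 7.61 and 7.15 in wild type and between 5.22 and 5.24 in the mutant, a difference of -2.21 ± 0.27 (4.62-fold). In both of these the genotypes did not overlap. The other probe set differed by 0.04, -0.25 and -0.68 in pairs 1 to 3, a mean of -0.30 ± 0.36, so the lower signal was carried by 2 of 3 probe sets. The tachykinin precursor genes, the other receptors and the tachykinin-degrading peptidase Mme made 6 measured genes, of which 0 passed. Mme differed by 0.28 ± 0.04 (95% interval 0.11 to 0.44, limma adjusted p = 0.434) and Tacr2 by -0.05 ± 0.11 (-0.24 to 0.14, adjusted p = 0.864).

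**Figure D2:**
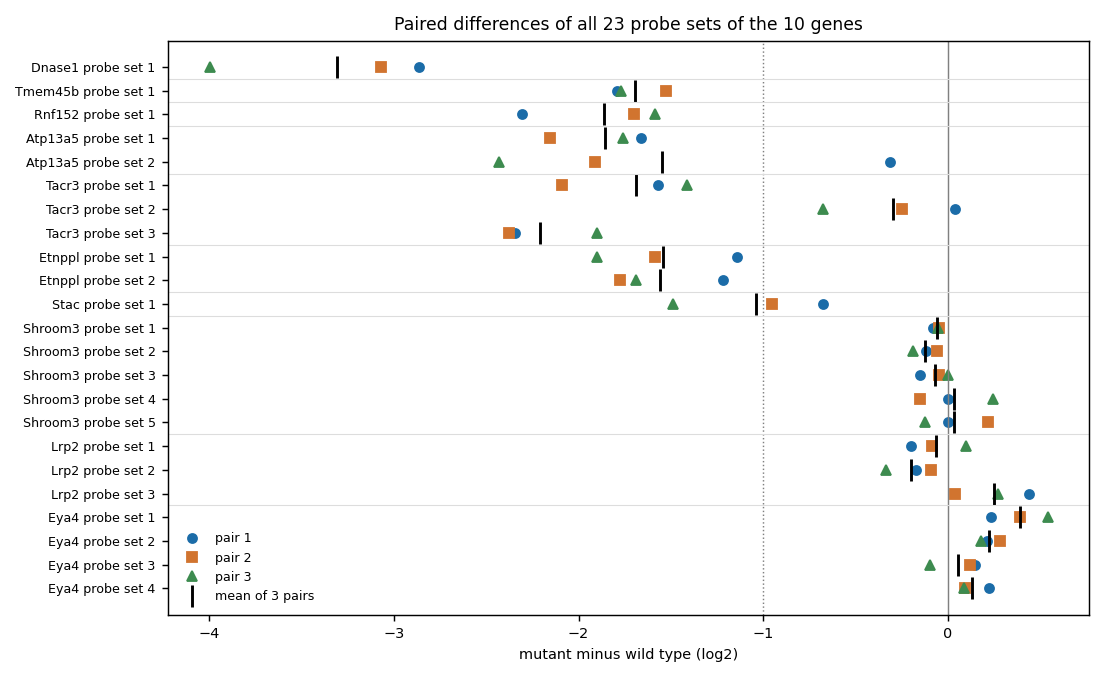
Mutant minus wild type (log2) for all 23 probe sets of the 10 genes, numbered within a gene from the best expressed. Markers are the 3 pairs, black bars their mean, and the dotted line is -1. Of the 11 probe sets of the 7 lower genes, 10 lie at -1 or below on average, and the exception is a Tacr3 probe set at -0.30.

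Enzymes and adaptors of the cell interior were lower as well. Rnf152, also with its start region printed above, encodes a lysosomal ubiquitin ligase that acts on the Rag GTPases upstream of mTORC1. It read 9.77, 9.64 and 9.11 in wild type and 7.46, 7.94 and 7.53 in the mutant, a difference of -1.86 ± 0.39 (3.64-fold). The genotypes were more than 1 log2 unit apart at their nearest arrays. Of the 16 measured genes of the Rag and mTORC1 pathway and related ligases, 0 passed. Lamtor1, a lysosomal anchor of the Rag GTPases, differed by 0.04 ± 0.01 (95% interval -0.12 to 0.20, limma adjusted p = 0.877). Lamtor5, of the same complex, differed by 0.08 ± 0.09 (-0.10 to 0.27, adjusted p = 0.779).

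Etnppl, the third gene with a window printed above, encodes the lyase that breaks down phosphoethanolamine. It read 6.42, 7.63 and 7.42 in wild type and 5.28, 6.04 and 5.52 in the mutant, a difference of -1.54 ± 0.38 (2.91-fold) with no overlap. Its second probe set gave nearly the same mean, -1.56 ± 0.30, and differed by -1.22, -1.77 and -1.69 in pairs 1 to 3. Both probe sets thus had similar mean differences, with the smallest in pair 1. The second was low on mutant arrays 1 to 3, at percentile 4.0, 7.7 and 16.5 of all probe sets, where folds are uncertain. The 12 measured genes of ethanolamine and phosphatidylethanolamine metabolism had a median of 0.03, and 0 passed. Etnk1, an ethanolamine kinase, differed by 0.17 ± 0.11 (95% interval -0.02 to 0.36, limma adjusted p = 0.730) and Pisd, the phosphatidylserine decarboxylase, by -0.03 ± 0.09 (-0.21 to 0.15, adjusted p = 0.912).

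Stac, an adaptor protein that binds L-type calcium channels, was the least lowered of the 7. It read 6.97, 7.63 and 6.65 in wild type and 6.29, 6.68 and 5.16 in the mutant. The difference was -0.68, -0.95 and -1.49 in pairs 1 to 3, a mean of -1.04 ± 0.41 (2.05-fold). It was the only lower gene whose best expressed probe set overlapped between genotypes: 1 mutant value lay above the lowest wild type value. Without pair 3 its mean was -0.81, which no longer meets the limit of -1. Of 10 measured genes of the Stac and calcium channel list 0 passed. Cacna2d1, a channel subunit gene, differed by 0.40 ± 0.42 (95% interval -0.02 to 0.81, limma adjusted p = 0.715) and Cacna1d, an L-type pore gene, by -0.10 ± 0.05 (-0.27 to 0.07, adjusted p = 0.751).

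Non-overlap was common in the lower set. Of the 10 genes, 6 had all mutant arrays below all wild type arrays by the best expressed probe set, all in the lower set, against 0.385% of all genes. Since values of different pairs are not on a common scale, overlap across pairs is a description of the deposited values only, and the paired differences are the main measure. The median difference of the 7 genes was -1.66, -1.70 and -1.76 in pairs 1 to 3. The smallest difference of a gene lay in pair 1 for 4 of the 7, in pair 2 for 1 and in pair 3 for 2.

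The level genes were measured by more probe sets than most of the lower ones. Shroom3, an actin-binding protein that drives apical constriction of epithelial cells, read 8.03, 8.41 and 8.15 in wild type and 7.95, 8.36 and 8.09 in the mutant. The difference was -0.06 ± 0.02, and the means of its 5 probe sets ran from -0.12 to 0.03. No pair of any Shroom3 probe set differed by more than 0.25 in either direction. In pair 1, 2 of these probe sets had a difference of exactly 0, as did 34.2% of all probe sets in that pair. Among 10 measured genes of the Shroom and myosin list 0 passed. Its best expressed members were the myosin genes Myl12a (0.12 ± 0.04, 95% interval -0.04 to 0.29, limma adjusted p = 0.750) and Myh9 (0.06 ± 0.22, -0.20 to 0.32, adjusted p = 0.883).

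Lrp2 encodes megalin, a large endocytic receptor of absorptive epithelia. It read 10.17, 10.26 and 9.85 in wild type and 9.98, 10.18 and 9.95 in the mutant, a difference of -0.06 ± 0.15. The 2 other probe sets differed in sign, with -0.20 ± 0.12 and 0.25 ± 0.20. All 9 pair differences of Lrp2 thus lay between -0.33 and 0.44, and no direction was shared by its probe sets. Of 13 measured genes of the megalin partner and LDL receptor list 0 passed. Lrpap1, the chaperone of these receptors, differed by -0.18 ± 0.06 (95% interval -0.35 to -0.0028, limma adjusted p = 0.691) and Lrp1 by 0.18 ± 0.45 (-0.26 to 0.61, adjusted p = 0.801).

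Eya4, a phosphatase and transcriptional coactivator that works with homeodomain proteins and is a known deafness gene, went the other way. It read 8.98, 9.10 and 8.09 in wild type and 9.22, 9.49 and 8.63 in the mutant. Every mutant array was above its own wild type partner, by 0.24, 0.39 and 0.54 (mean 0.39 ± 0.15), although the genotypes overlapped. Its other 3 probe sets had means of 0.22, 0.06 and 0.13, and 1 pair of them was below 0. Of the 10 measured genes of the Eya, sine oculis and Dach families 0 passed. Eya1 differed by 0.14 ± 0.06 (95% interval -0.03 to 0.31, limma adjusted p = 0.739) and Six2 by 0.14 ± 0.24 (-0.14 to 0.41, adjusted p = 0.766).

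**Figure D3:**
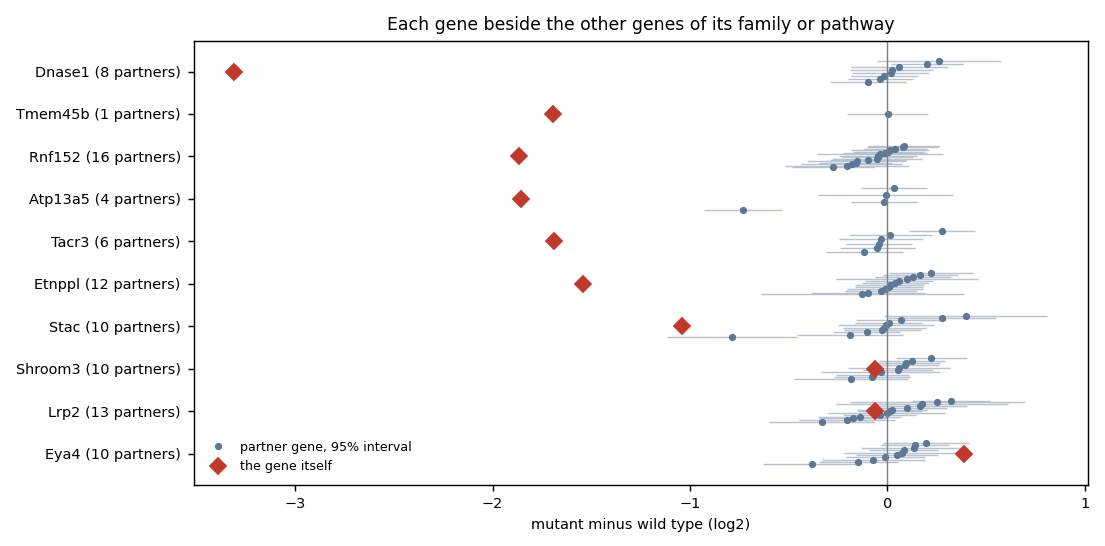
Mutant minus wild type (log2) of each of the 10 genes (red diamonds, mean of 3 pairs) and of the measured genes of its family or pathway (blue dots, with 95% intervals of limma's paired fit). The 90 family and pathway genes lie between -0.79 and 0.40, above each of the 7 lower genes. Those 7 were picked with this contrast in view, and only 0.22% of all genes met their rule. Nothing is therefore read from the gap.

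Across all families and pathways, 90 of 98 listed genes were measured and 0 passed in limma's paired fit, against 0.148% of all genes in either direction. At an unadjusted p under 0.05 there were 6 higher and 6 lower, and in limma's fit without the pairs 0 passed as well, against 0.0055% of all genes. The median of the 90 was -0.00085, and 78 of them stayed within 0.5 of 0 in every pair. Of all genes 91.1% did so, so the 78 show only the common behaviour. The lowest of them, Cacnb2, a calcium channel subunit gene on the Stac list named after its values were seen, differed by -0.79 ± 0.32 (95% interval -1.11 to -0.46, limma adjusted p = 0.250).

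**Figure D4:**
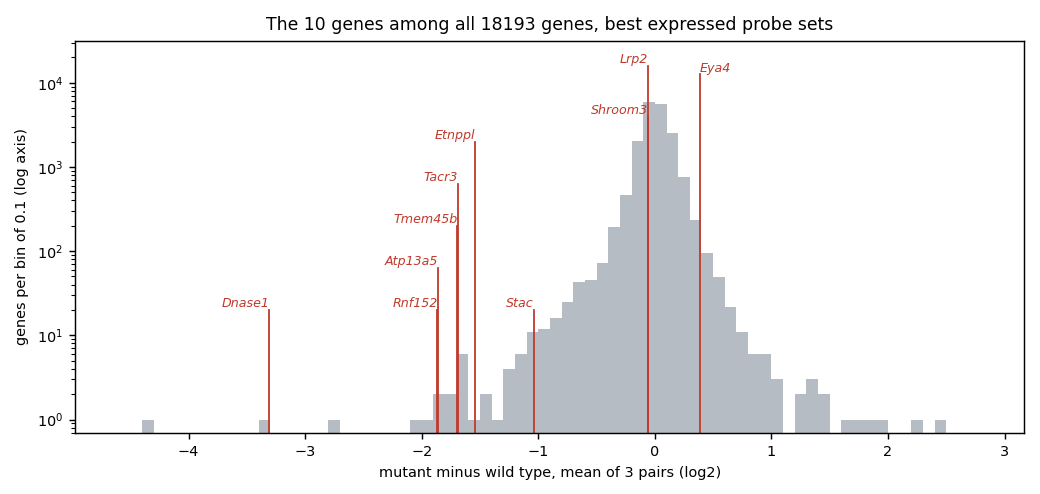
Histogram of the mutant minus wild type difference (log2, mean of 3 pairs) over the best expressed probe sets of 18193 genes, on a log count axis. Red lines mark the 10 genes and their heights carry no value. Dnase1 at -3.31 and the other lower genes lie in the sparse left tail. Shroom3 and Lrp2 lie inside the main peak, and Eya4 lies on its right shoulder at 0.39 (percentile 98.8).

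The genes next to the 10 on their chromosomes gave a local comparison, added after the data were seen. Taking the nearest measured gene on each side in RefSeq gene order, 20 neighbours were found. In limma's paired fit 0 passed, with 2 at an unadjusted p under 0.05. Of all genes only 0.148% passed in either direction, so nothing is read from the 0 among 20. In 19 of the 20 the mean difference was within 0.5 of 0. Of all genes 91.1% were within 0.5 in every pair, a stricter measure, so this is the common behaviour. The exception was Atp13a4, the neighbour of Atp13a5 described above. The neighbours of Dnase1 were Slx4 (0.03 ± 0.10) and Trap1 (-0.05 ± 0.10), and those of Rnf152 were Cdh20 (-0.08 ± 0.11) and Pign (0.14 ± 0.11). The part of chromosome position in the differences of the 7 lower genes was not tested.

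Potassium transport genes of marginal cells were lower on the same arrays. Kcne1 differed by -4.32 ± 0.30, more than any of the 10 genes, while Kcnq1 (-1.67 ± 0.17) and Slc12a2 (-1.22 ± 0.18) lay within the range of the 7 lower genes. Each of these 3 passed in limma's paired fit. There were 12 measured marginal cell markers outside the 10 genes, and they include these 3 and the mutated gene Esrrb. Of the 12, 11 had a negative difference. By the best expressed probe set 0 of the other 9 passed, beside the background of 0.132% of genes lower. Counting any probe set of a gene, 4 of the 12 passed in either direction. Some of these 9 met the limit of -1 and some stayed level, and those named here were picked after their values were seen. Atp1b2 differed by -1.40 ± 0.29 and Bsnd by -1.05 ± 0.18 (limma adjusted p = 0.0630 for each, paired). Hmx2 (-0.58 ± 0.20), Heyl (-0.49 ± 0.13) and Hmx3 (-0.44 ± 0.17) were lower in all 3 pairs but short of the limit. Abcg1, a lipid transporter gene, differed by -0.12 ± 0.07 and Wnk2, a kinase gene, by 0.01 ± 0.39. These markers were picked with their values known, as were the 10 genes, so nothing is read from both kinds being present. The mean level of these 12 markers was 8.78 to 9.76 on wild type arrays and 7.72 to 8.77 on mutant arrays.

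Markers of some other cell types also differed with genotype, and their part in the differences of the 10 genes was not tested. Of 13 markers of intermediate cells, the melanocytes of the stria, 11 had a negative difference with a median of -0.60, and their mean level was 8.59 to 9.58 in wild type and 8.18 to 8.96 in the mutant. All 5 neuron markers were higher in the mutant, with a median of 3.58 in pair 1 and 0.34 and 0.24 in pairs 2 and 3. Their mean level was 4.65 to 5.24 in wild type and 4.95 to 7.86 in the mutant. The medians of the 7 lower genes were -1.66, -1.70 and -1.76 in pairs 1 to 3, and how they relate to the neuron markers was not tested. All 6 markers of supporting cells and the tectorial membrane were higher, with a median of 0.68, which was 0.05, 1.27 and 0.16 in pairs 1 to 3, and a mean level of 6.56 to 7.22 in wild type and 6.78 to 8.41 in the mutant. All 3 measured Reissner membrane markers were higher too, with a median of 0.23 and a mean level of 6.74 to 7.14 in wild type and 7.09 to 7.30 in the mutant. Of 7 basal cell markers 5 had a negative difference with a median of -0.18, and their mean level was 10.28 to 11.24 in wild type and 9.76 to 10.90 in the mutant. Gjb6, the connexin 30 gene, was the only one of these basal markers to pass in limma's paired fit (-1.27 ± 0.14, adjusted p = 0.0304). No intermediate, neuron, supporting cell or Reissner membrane marker passed. Of the intermediate cell markers, Tyr met the limit of -1 (-1.13 ± 0.23) and is named after its values were seen. Medians of the other lists were -0.10 (fibrocytes), 0.22 (spindle and root cells), 0.06 (hair cells) and -0.11 (endothelium). They were 0.13 (Schwann cells), 0.08 (macrophages), 0.12 (cartilage and bone) and -0.37 (erythroid cells). Slc12a2, also on the fibrocyte list, was the only marker of these other lists to pass. No gene is at 0 on this log2 scale, so absence of a marker cannot be read from it.

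For each of the 7 lower genes, the 3 genes with the most similar trio of pair differences were found among all other genes, by root mean square distance on the log2 scale over 3 pairs. Nearest to Dnase1 were Aldh1a2, a retinoic acid synthesising enzyme (distance 0.84), Kcne1 (1.12) and Ehd3 (1.44), and no other gene came closer than 0.84. Tmem45b lay nearest to F3, the tissue factor gene (0.095), then Nipal1 (0.16) and Fads6 (0.20). Rnf152 lay nearest to Nfe2l3 (0.16), Kcnq1 (0.31) and Ehd3 (0.35). For Atp13a5 they were Rspo3 (0.16), Ehd3 (0.22) and Nipal1 (0.22), and for Tacr3 Kcnq1 (0.23), Rspo3 (0.25) and Nipal1 (0.27). Etnppl was closest to Ptgds, the prostaglandin D synthase gene (0.20), then Nipal1 (0.32) and Ppp2r2c (0.38). Stac was closest to Cox7a1, a respiratory chain subunit gene (0.096), Ppp2r2c (0.19) and Bsnd, a chloride channel subunit gene of marginal cells (0.22). Only 40 genes were lower by 1 or more in this way, so the nearest genes came from a small group and several recur: Nipal1 stood beside 4 of the 7 genes and Ehd3 beside 3. All of these genes share the same 6 arrays, so the likeness is a description of these pools.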

How the data were processed

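Total RNA of 6 pools was hybridised to 1 Affymetrix array each. The authors deposited log2 values, 1 for each probe set, from RMA, as the submitters' processing notes name it; the sources used here do not give its version or settings, and the range of the values, 2.33 to 14.6, shows the log2 scale. Of 45101 probe sets, 64 controls were left out and 45037 tested with no filter on level. Symbols came from the platform annotation, where 34945 probe sets had 1 symbol, 932 several and 9160 none. All 23 probe sets of the 10 genes had the same symbol in RefSeq by gene identifier. Where a gene had several, the best expressed over all arrays stood for it.

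Differences were fitted with limma 3.58.1 under R 4.3.3 (two-sided, default eBayes prior) with the replicate number as a block and Benjamini-Hochberg adjustment over all 45037 probe sets, at a threshold of 0.05. The replicate numbers in the labels were used as pairs: pairs 1 to 3 had correlations of 0.879, 0.818 and 0.746 between their arrays' deviations from the genotype means, over a limit of 0.1. In pair 1, 34.2% of probe sets had exactly equal values on its arrays, against 2.63% in pair 2 and 3.10% in pair 3. The cause of these shares was not tested. The sources used here do not say which arrays RMA processed together. Joint processing of same-numbered arrays could itself raise the correlations above, so they are not independent evidence of pairing. With 3 pairs an exact sign test of 1 gene cannot go below p = 0.25. The number of arrays limits the precision. On simulated data with 45037 probe sets and noise drawn independently on each array, the paired fit recovered 98 of 100 probe sets lowered by 2 (log2). It recovered 99 of 100 raised by 2, with 9 false calls. Of the lower genes only Dnase1 had a mean difference beyond 2, and recovery of smaller differences was not simulated.

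The 10 genes, the family, pathway and marker lists and the limits of -1 and 0.5 were chosen with earlier results of these data known. Named beside the 10 genes were the genes of each family or pathway list that passed (failing that, its 2 best expressed). Also named were the potassium transport genes Kcne1, Kcnq1 and Slc12a2, Esrrb, and the 3 most similar genes outside the 10 for each lower gene. Other named genes were chosen after their values were seen. Promoter windows came from a RefSeq table of GRCm38.p6. Alternatives were no replicate block, a filter on level, quantile normalization, median centring, other eBayes options, leaving out each pair, a mean over all probe sets of each gene and leaving out cross-hybridising probe sets.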

Additional observations from a re-analysis of the deposited data

How the results depend on the processing

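With the replicate block, 5 probe sets passed as higher and 37 as lower in mutant arrays, and with no replicate block 1 and 2 did, none of them of the 10 genes. Leaving out 1 replicate number from the paired fit left 1 residual degree of freedom and 0 to 3 higher and 0 to 4 lower probe sets. With trend and robust options 8 passed higher. No family or pathway gene passed under any setting run. The limit of -1 was met by 4 of the 10 genes, in place of 7, among probe sets at or above the median level, because Tmem45b, Atp13a5 and Etnppl have none there. Without probe sets that can match more than 1 transcript, Dnase1 and Shroom3 could not be given, and Tacr3 was at -0.30. Over their other settings the differences ranged from -3.53 to -2.97 for Dnase1, -1.78 to -1.65 for Tmem45b and -1.22 to -0.81 for Stac. Lrp2 ranged from -0.20 to 0.0062, so its sign is not settled. With a mean over probe sets Eya4 was at 0.20 and Shroom3 at -0.04. In a shorter window, from 150 bases before the start, 2.96% of promoters held AAGGTCA. Signal over background is not given for these arrays, so folds of low probe sets are uncertain.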
